A study of Mus musculus with 6 samples.

Results

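Complex I of the respiratory chain, NADH:ubiquinone oxidoreductase, was followed here at the level of messenger RNA in PGCLCs, mouse cells that resemble primordial germ cells. The genes were taken by name: protein-coding genes whose symbol starts with Nduf, then a, b, c, s or v and a digit, or with mt-Nd, without the Ndufaf assembly factors. They numbered 44 of the 37991 gene IDs in the count table, 37 nuclear and 7 mitochondrially encoded, and all 44 passed the filter on low counts. PGCLCs serve as a culture model of the early germ line: embryonic stem cells are first turned into epiblast-like cells, and those into PGCLCs. The stem cells had a C57BL/6 background, 2 floxed alleles of Ezh2 (Ezh2f/f) and Cre-ERT2, a Cre recombinase that is active when bound by 4-hydroxytamoxifen, and all 6 libraries came from such cells. For the 3 Ezh2 KO libraries, labelled Ezh2-/-, the induction medium held 4-hydroxytamoxifen dissolved in ethanol, and for the 3 Ctrl libraries it held ethanol without the drug. The medium of both also held BMP2, SCF, LIF and EGF, and at day 4 the aggregates were dissociated and sorted. The sorting gate, the Cre promoter and the number of stem cell clones were not found in the labels. What the replicates of a group are (separate inductions or not) is not stated either, so the p-values speak of the spread between these samples, which may be technical.

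Complex I is the entry point of the respiratory chain. Its hydrophilic arm, which stands in the mitochondrial matrix, takes electrons from NADH through a flavin and a chain of iron-sulfur clusters to ubiquinone, and its membrane arm pumps protons. The core of the hydrophilic arm is encoded in the nucleus and the core of the membrane arm in the mitochondrial genome, so the complex needs transcripts of both genomes. Accessory subunits, all nuclear, surround both arms. Of the 44 genes, 7 encode the core of the hydrophilic arm, 7 the core of the membrane arm, 9 accessory subunits of the hydrophilic arm and 19 accessory subunits of the membrane arm. The remaining 2 are Ndufa4, which carries the name but is now assigned to cytochrome c oxidase (complex IV), and its paralog Ndufa4l2.

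The libraries held 27072150 to 49382146 counts, of which the 44 genes took 0.801% to 1.18%. Ezh2, the targeted gene and the main methyltransferase of polycomb repressive complex 2, stood at 40.8, 67.1 and 70.0 CPM in Ezh2 KO replicates 1 to 3 and 91.8, 78.1 and 95.3 CPM in Ctrl replicates 1 to 3, where CPM is the read count scaled to the size of the library after TMM. Each Ezh2 KO library was below each Ctrl library for Ezh2, as for 4.03% of all tested genes. The log2 fold change was -0.58 (95% interval -1.105 to -0.048). In edgeR's quasi-likelihood test the unadjusted p was 0.0361, where 2.8% of all tested genes were under 0.05. With an adjusted p of 0.976 the difference was not called, and that test called 0 of all 16420 tested genes. The Ezh2 count covers the whole gene, exons outside the deletion included, and is no measure of remaining Ezh2 function. All 10 PGC markers were detected, from Prdm1 (4.30 ± 1.31 CPM in Ezh2 KO and 5.96 ± 1.23 CPM in Ctrl) to Nanog (507 ± 66.1 CPM in Ezh2 KO and 514 ± 45.4 CPM in Ctrl). Their sum was 1325 to 1741 CPM in Ezh2 KO and 1652 to 1845 CPM in Ctrl, 0 were called, and 8 of 10 had a negative log2 fold change. Of 14 markers of other cells 11 passed the filter, 0 were called and 9 had a negative log2 fold change (median -0.59), and their sum was 132 to 212 CPM in Ezh2 KO and 133 to 216 CPM in Ctrl. Most of that sum was Pecam1, which PGCs also express, and Foxa2 was at 0 in 5 of 6 libraries. Eomes stood at 12.5 ± 1.41 CPM in Ezh2 KO and 10.3 ± 0.87 CPM in Ctrl, above Prdm1. Eomes and Elf5 were the 2 with a positive log2 fold change (0.27 and 1.10). In both, the Ezh2 KO libraries all lay above the Ctrl libraries, and in 3 other markers all below (4.07% and 4.03% of all tested genes). On the first principal component of all tested genes, which held 55.5% of the variance, Ctrl replicate 1 (-61.4) and Ezh2 KO replicate 2 (78.0) stood apart from the other 4 libraries (-35.5 to 13.3). The samples are bulk, so fewer cells with a transcript and less transcript per cell cannot be told apart.

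The sequences that bear on these counts are shown first. On the mitochondrial genome mt-Nd4l and mt-Nd4 overlap and are known to share a messenger RNA, so some reads belong to both. The last 30 bases of mt-Nd4l and the first 30 bases of mt-Nd4, from the transcripts of GENCODE M21, have 7 bases in common, given in capitals:
mt-Nd4l: gtccaaaatctcaacctactacaATGCTAA
mt-Nd4: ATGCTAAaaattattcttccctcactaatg
The shared bases hold the stop codon of mt-Nd4l and, in another frame, the start codon of mt-Nd4.

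Nuclear complex I genes lie on many chromosomes, among them Ndufa1 and Ndufb11 on the X, and are known to share regulators of mitochondrial biogenesis, of which NRF1, GABPA (the DNA-binding part of NRF2) and YY1 are best described. RefSeq promoters of GRCm38.p6, 300 bases each, were found for 32 of the 37 nuclear genes, which gave 34 promoters. NRF1 letters (GCGC, any base, then TGCGC, on either strand) were in 8 of the 34 (23.5%), against 4.6% of all 32851 promoters in the table. These 8 belong to 7 genes, since overlapping promoters of Ndufa5 hold the same site. YY1 letters (AAGATGGCG, either strand) were in 5 (14.7%), against 1.4% of all, and GABPA letters (CCGGAAGT, either strand) in 1 (2.94%), against 3.89% of all. All 5 YY1 matches lay in the last 50 bases of the promoter, which come after the transcript start. Their letters contain ATG, and whether it is the start codon there was not tested. The letters of none of the 3 motifs contain those of another. The member promoters were richer in G and C (median 59.0%, against 52.7% for all promoters in the table). A match describes letters in a window and shows neither binding nor control. The following 3 promoters are shown because they hold each kind of letters, in capitals, 5′ to 3′ along the gene: Ndufs6 holds NRF1 and YY1 letters (chr13:73328433-73328732, minus strand), Ndufa8 holds NRF1 letters (chr2:36049289-36049588, minus strand) and Ndufs3 holds GABPA letters on the opposite strand (chr2:90904672-90904971, minus strand), all on GRCm38.p6.
Ndufs6: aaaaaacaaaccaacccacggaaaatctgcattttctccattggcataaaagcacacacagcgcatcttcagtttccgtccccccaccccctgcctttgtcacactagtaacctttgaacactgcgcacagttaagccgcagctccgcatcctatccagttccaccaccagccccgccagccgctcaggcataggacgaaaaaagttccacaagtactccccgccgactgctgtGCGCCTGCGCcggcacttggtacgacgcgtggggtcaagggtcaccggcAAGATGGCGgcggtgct
Ndufa8: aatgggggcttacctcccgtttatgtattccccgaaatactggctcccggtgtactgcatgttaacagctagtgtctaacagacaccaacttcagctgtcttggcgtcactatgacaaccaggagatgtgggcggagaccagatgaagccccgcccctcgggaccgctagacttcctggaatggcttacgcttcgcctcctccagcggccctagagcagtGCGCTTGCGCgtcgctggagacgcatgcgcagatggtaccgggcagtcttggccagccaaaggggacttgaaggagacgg
Ndufs3: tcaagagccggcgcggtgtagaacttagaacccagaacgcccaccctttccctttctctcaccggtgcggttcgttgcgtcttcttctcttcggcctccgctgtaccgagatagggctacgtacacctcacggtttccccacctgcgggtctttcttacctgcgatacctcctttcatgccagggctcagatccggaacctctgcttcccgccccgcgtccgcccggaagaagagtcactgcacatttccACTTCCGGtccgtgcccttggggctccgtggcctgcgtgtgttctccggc
The 12 nuclear genes with any of these letters had a median level of 229 TPM, and the 20 whose promoters had none a median of 241 TPM, where TPM, unlike CPM, divides each count by exon length before scaling. In the comparison of Ezh2 KO with Ctrl described next, their median log2 fold changes were 0.01 and 0.05.

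Ezh2 KO was set against Ctrl to ask what loss of this H3K27 methyltransferase does to transcripts at the start of the germ line. All Ezh2 KO libraries and no Ctrl library came from medium with the drug that activates Cre. Effects of the drug, of active Cre and of Ezh2 loss therefore cannot be told apart here. For complex I no difference was large enough beside the spread between libraries to be called: edgeR's quasi-likelihood test, adjusted over all genes, called 0 of the 44, and it called 0 of all 16420 tested genes (0%). At an unadjusted p under 0.05 the same test had 0 of the 44, against 2.8% of all tested genes. DESeq2 called 0 of the 44 (0.0201% of all genes it tested were called) and limma-voom 0 (0%), with 0 of the 44 at an unadjusted p under 0.05 in each. The median log2 fold change (Ezh2 KO over Ctrl) was 0.04 for the nuclear genes, 0.21 for the mitochondrially encoded genes (-0.15 without Ctrl replicate 1 and Ezh2 KO replicate 2) and 0.01 for all tested genes. Of the nuclear genes 22 had a positive and 15 a negative value, and of the mitochondrially encoded genes, 6 of which come from 1 precursor RNA, 7 and 0. A gene whose 3 Ezh2 KO libraries lay all above or all below the 3 Ctrl libraries was about as rare among them as among all tested genes: 1 of the 44 lay above (4.07% of all tested genes) and 1 below (4.03%), or 2 in either direction (8.09%).

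For most members the edgeR intervals bound the difference between these 2 groups of samples, 1 gene at a time. They rest on the spread between these samples, which may be technical, and do not by themselves bound an effect of Ezh2 loss. For 36 of the 37 nuclear genes the 95% interval of the fold change lay within a 2-fold change either way, and for 29 within a 1.5-fold change. For the 7 mitochondrially encoded genes all intervals lay within a 2-fold change and 0 within a 1.5-fold change, and their libraries differed more. The median half-width of the interval was 0.38 on the log2 scale for nuclear genes, 0.59 for mitochondrially encoded genes and 0.71 for all tested genes. The nuclear gene whose interval went beyond a 2-fold change was Ndufa4l2.

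**Figure D1:**
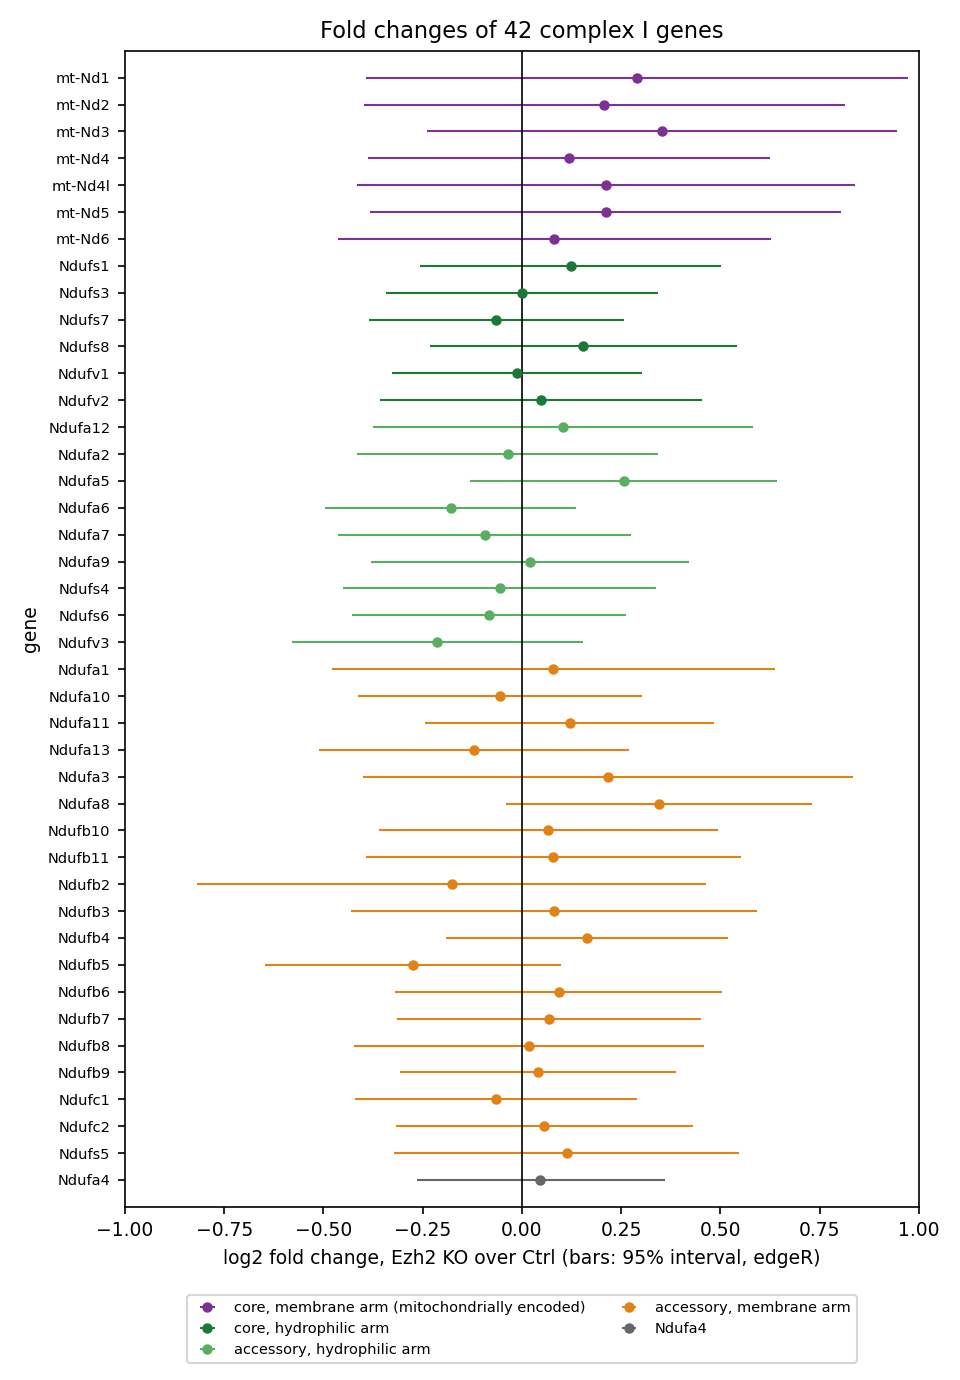
Log2 fold change (Ezh2 KO over Ctrl, horizontal axis) with its 95% interval from edgeR for 42 complex I genes, coloured by place in the complex; Ndufa4l2, at -1.22 with an interval of -4.17 to 1.73, is off the scale and not drawn. Every interval drawn crosses 0, and the 7 mitochondrially encoded genes at the top have wider intervals than most nuclear ones.

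The core of the membrane arm is encoded by 7 mitochondrial genes. mt-Nd1, which forms the entry to the ubiquinone site, stood at 1231, 2565 and 2010 CPM in Ezh2 KO replicates 1 to 3, against 1120, 1604 and 2026 CPM in Ctrl replicates 1 to 3. The groups overlapped, replicate 1 was the lowest in both, and Ezh2 KO replicate 2 was the highest of all (log2 fold change 0.29 ± 0.30 SE, edgeR adjusted p = 0.976). The antiporter-like subunits that pump protons are mt-Nd2, mt-Nd4 and mt-Nd5. For mt-Nd2 the levels were 315, 641 and 537 CPM in Ezh2 KO and 341, 456 and 495 CPM in Ctrl, in the order of replicates 1 to 3. For mt-Nd4 they were 782, 1274 and 1074 CPM in Ezh2 KO and 745, 1001 and 1136 CPM in Ctrl. For mt-Nd5 they were 321, 615 and 549 CPM in Ezh2 KO and 333, 447 and 503 CPM in Ctrl. All 3 pump genes had their low values in replicate 1 of either group and their highest in Ezh2 KO replicate 2, with overlapping groups (log2 fold changes 0.21 ± 0.26, 0.12 ± 0.22 and 0.21 ± 0.26 SE, edgeR adjusted p = 0.976 to 0.978).

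Between mt-Nd1 and the pumps sit the small subunits mt-Nd3, mt-Nd4l and mt-Nd6. mt-Nd3 stood at 31.3, 48.5 and 42.5 CPM in Ezh2 KO and 23.2, 34.1 and 38.5 CPM in Ctrl. It was the 1 mitochondrially encoded gene that was higher in Ezh2 KO in each pair of same-numbered libraries (log2 fold change 0.35 ± 0.26 SE, edgeR adjusted p = 0.976), where 17.9% of all tested genes were. mt-Nd4l stood at 113, 183 and 151 CPM in Ezh2 KO and 89.7, 121 and 175 CPM in Ctrl (0.21 ± 0.27 SE, and 0.01 without Ctrl replicate 1). mt-Nd6, the 1 complex I gene on the light strand, stood at 103, 184 and 185 CPM in Ezh2 KO and 131, 163 and 152 CPM in Ctrl (0.08 ± 0.24 SE). As for the others, replicate 1 was lowest in each group, but Ezh2 KO replicates 2 and 3 were level at the top. No source used here says whether counting used strand, so reads of mt-Nd6 and antisense reads of heavy-strand transcripts cannot be told apart.

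Levels per length placed the mitochondrial genes far apart although heavy-strand genes are transcribed as 1 precursor. mt-Nd1 averaged 4688 ± 1314 TPM in Ezh2 KO and 4037 ± 1120 TPM in Ctrl (SD, n = 3 each). It was followed by mt-Nd4 (1765 ± 313 TPM in Ezh2 KO and 1702 ± 345 TPM in Ctrl), then by mt-Nd4l and mt-Nd2, near each other at means over all libraries of 1112 and 1064 TPM. mt-Nd4l exceeded mt-Nd2 in only 2 of 6 libraries, so these neighbours were not separated. mt-Nd4 was above mt-Nd4l in 6 of 6 libraries, with means 1.56-fold apart, although the 2 share a messenger RNA. The order is thus one of reads per length and need not be that of the transcripts. mt-Nd6 (705 TPM), mt-Nd5 (602 TPM) and mt-Nd3 (249 TPM) followed in the same order in 6 of 6 libraries. Stretches of at least 100 bases and 95% identity in other annotated genes were found for 5 of the 7, among them 876 bases of mt-Nd4 in Gm28439 at 100%. No source used here says how reads that align more than once were counted, and the levels of these 5 are uncertain for that reason.

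The core of the hydrophilic arm, encoded by 7 nuclear genes, was the steadiest of the 4 groups of subunits. Its median ratio of the highest to the lowest library was 1.28, against 2.03 for the mitochondrial core and 1.99 for all tested genes. Ndufv1, which binds NADH and the flavin, stood at 221, 222 and 225 CPM in Ezh2 KO and 241, 194 and 238 CPM in Ctrl. The 3 Ezh2 KO values lay inside the range of the Ctrl values (log2 fold change -0.01 ± 0.14 SE, edgeR adjusted p = 0.994). Ndufv2, its partner with an iron-sulfur cluster, stood at 235, 347 and 239 CPM in Ezh2 KO and 265, 253 and 276 CPM in Ctrl. Ndufs1, the largest subunit, stood at 148, 167 and 150 CPM in Ezh2 KO and 131, 124 and 172 CPM in Ctrl. Ezh2 KO replicate 2 stood apart for Ndufv2 but not for Ndufs1, and the groups overlapped for both (log2 fold changes 0.05 ± 0.18 and 0.12 ± 0.17 SE).

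Ndufs3, Ndufs7 and Ndufs8 belong to the part of the arm that hands electrons to ubiquinone. Ndufs7, which carries the last iron-sulfur cluster before ubiquinone, stood at 132, 145 and 135 CPM in Ezh2 KO and 155, 129 and 146 CPM in Ctrl. The groups overlapped and the difference was small beside its error (log2 fold change -0.06 ± 0.14 SE, edgeR adjusted p = 0.978). Ndufs8, with further clusters, stood at 127, 175 and 127 CPM in Ezh2 KO and 130, 122 and 133 CPM in Ctrl. Ndufs3, a structural part of the same module, stood at 112, 138 and 117 CPM in Ezh2 KO and 132, 113 and 121 CPM in Ctrl. For Ndufs8 only Ezh2 KO replicate 2 left the Ctrl range upward (0.16 ± 0.17 SE), and for Ndufs3 the group means were nearly equal (0.00 ± 0.15 SE). A near-copy of 792 bases at 98.6% identity, the pseudogene Gm12251, makes the level of Ndufs3 uncertain.

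Per length, the nuclear core genes lay below all mitochondrial core genes but mt-Nd3. Means over the 6 libraries were 298 TPM for Ndufv2, 250 TPM for Ndufs8, 204 TPM for Ndufv1, 196 TPM for Ndufs7, 134 TPM for Ndufs3 and 43.9 TPM for Ndufs1. The order of Ndufv1 and Ndufs7 held in 4 of 6 libraries, and those neighbours were not separated. Lengths count every annotated exon of GENCODE M21, which lowers the level of a gene with long rare exons, and Ndufs1 had the longest exon length of the core genes, 8086 bases.

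**Figure D2:**
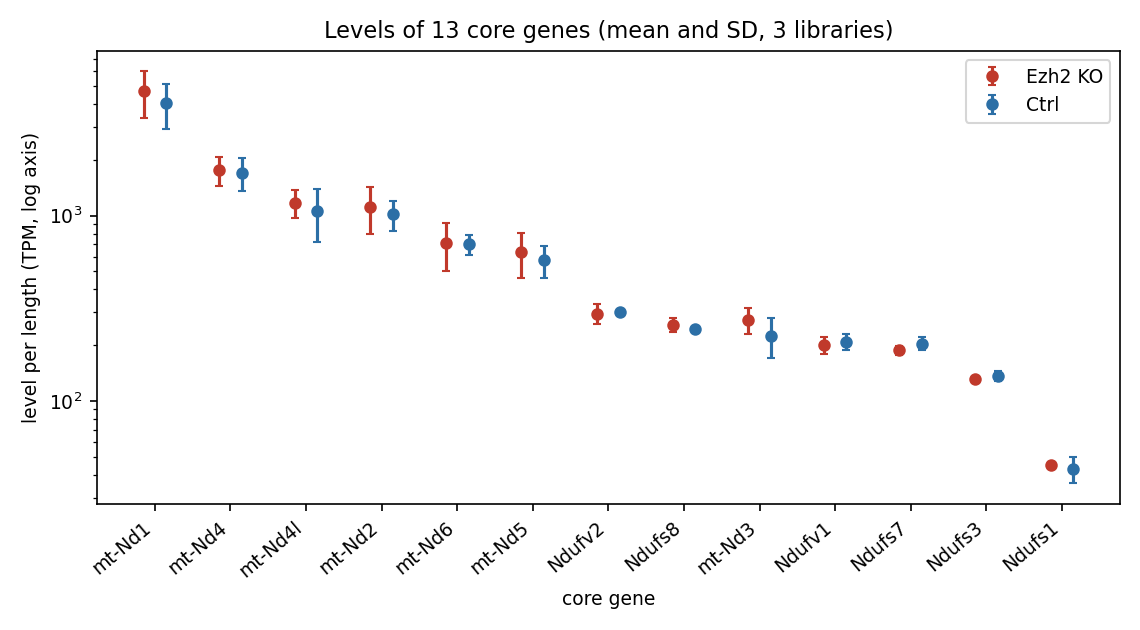
Mean level per length (TPM, log axis) of 13 core genes in Ezh2 KO (left of each pair) and Ctrl (right), with bars of 1 SD over 3 libraries. The mitochondrially encoded genes other than mt-Nd3 stand above the nuclear core genes drawn, and the 2 groups of a gene lie close together beside the range over all genes drawn.

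Among the 28 accessory genes, no difference was called. Ndufa8, a membrane arm subunit of the intermembrane space, had the largest positive value. It stood at 131, 179 and 136 CPM in Ezh2 KO and 111, 112 and 127 CPM in Ctrl. It was the member whose Ezh2 KO libraries all lay above its Ctrl libraries (log2 fold change 0.35 ± 0.17 SE, unadjusted p = 0.0721, edgeR adjusted p = 0.976), and the step between the groups was small: 131 CPM in the lowest Ezh2 KO library and 127 CPM in the highest Ctrl library. Ndufa6, a subunit of the hydrophilic arm that binds the acyl carrier protein, was the member on the other side. It stood at 166, 173 and 141 CPM in Ezh2 KO and 175, 182 and 186 CPM in Ctrl (-0.18 ± 0.14 SE, edgeR adjusted p = 0.976). Neither difference was called, and both genes are among the 6 of 44 with the same sign in all 3 same-numbered pairs, where 32.6% of all tested genes had 1 sign.

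Further values near the ends of the range belonged to Ndufb5, Ndufv3, Ndufa5 and Ndufa3. Ndufb5, of the membrane arm, stood at 148, 180 and 133 CPM in Ezh2 KO and 206, 169 and 182 CPM in Ctrl (log2 fold change -0.27 ± 0.16 SE). Ndufv3, of the NADH end of the hydrophilic arm, stood at 105, 107 and 87.4 CPM in Ezh2 KO and 130, 113 and 103 CPM in Ctrl (-0.21 ± 0.16 SE). Its groups overlapped, but it was lower in Ezh2 KO in each of the 3 same-numbered pairs, as were Ndufa6 and Ndufa4l2 (14.8% of all tested genes). Ndufa5, of the ubiquinone end of the hydrophilic arm, stood at 64.9, 87.7 and 73.6 CPM in Ezh2 KO and 64.9, 62.1 and 62.3 CPM in Ctrl (0.26 ± 0.17 SE). Ndufa3, of the membrane arm, stood at 61.9, 102 and 89.6 CPM in Ezh2 KO and 49.6, 79.1 and 89.2 CPM in Ctrl (0.22 ± 0.27 SE, and 0.003 without Ctrl replicate 1). For Ndufa3 the groups overlapped and replicate 1 was lowest in both, as for the mitochondrial genes. Ndufa3, Ndufa8 and mt-Nd3 were the 3 of 44 that were higher in Ezh2 KO in each pair. The other accessory genes had log2 fold changes between -0.18 for Ndufb2 and 0.16 for Ndufb4.

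By length-scaled level, the highest accessory genes were Ndufa2 (602 ± 62.6 TPM in Ezh2 KO and 646 ± 10.2 TPM in Ctrl) and Ndufa13 (445 ± 50.0 TPM in Ezh2 KO and 508 ± 20.6 TPM in Ctrl). The lowest by the mean over all 6 libraries were Ndufb2 (9.74 ± 3.11 TPM in Ezh2 KO and 11.5 ± 1.88 TPM in Ctrl) and Ndufv3 (73.4 ± 6.74 TPM in Ezh2 KO and 88.4 ± 11 TPM in Ctrl). Ndufb5 was close to Ndufv3, with 71.8 ± 4.36 TPM in Ezh2 KO and 90.8 ± 8.49 TPM in Ctrl, so those neighbours were not separated. Ndufb2 has an annotated exon length of 5628 bases, and it was also low without division by length, at 23.4 ± 7.29 CPM in Ezh2 KO and 26.4 ± 3.95 CPM in Ctrl. Near-copies by the same limits were found for 15 of the 37 nuclear genes, such as the pseudogene Ndufb4c, which matches 390 bases of Ndufb4 at 100%.

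Ndufa4 varied little between libraries and Ndufa4l2 the most of the 44 genes. Ndufa4 stood at 228, 287 and 244 CPM in Ezh2 KO and 242, 244 and 249 CPM in Ctrl (log2 fold change 0.05 ± 0.14 SE, edgeR adjusted p = 0.982). Its Ctrl libraries lay within a few percent of each other. Ndufa4l2, which hypoxia is known to induce and which lowers respiration when it is expressed, stood at 7.09, 0.888 and 0.272 CPM in Ezh2 KO and 15.5, 3.09 and 0.531 CPM in Ctrl. It spanned a 57.1-fold range over the 6 libraries, highest in replicate 1 and lowest in replicate 3 of both groups, and the lowest library held 11 reads. Each Ezh2 KO library lay below the Ctrl library of the same number, with log2 ratios of -1.13, -1.80 and -0.97 in pairs 1 to 3, but the groups overlapped. Without pairing the log2 fold change was -1.22 ± 1.28 SE (edgeR adjusted p = 0.976). With the replicate number as a block it was -1.31, with an adjusted p of 0.362 in edgeR, and DESeq2 with the block gave an adjusted p of 0.0674. It was the 1 of the 44 with an unadjusted p under 0.05 in the blocked edgeR fit, where 9.1% of all tested genes were. Neither blocked fit called it, and DESeq2 with the block called 0 of the 44 (0.285% of all genes it tested). Without Ctrl replicate 1 the unpaired log2 fold change was 0.61.

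**Figure D3:**
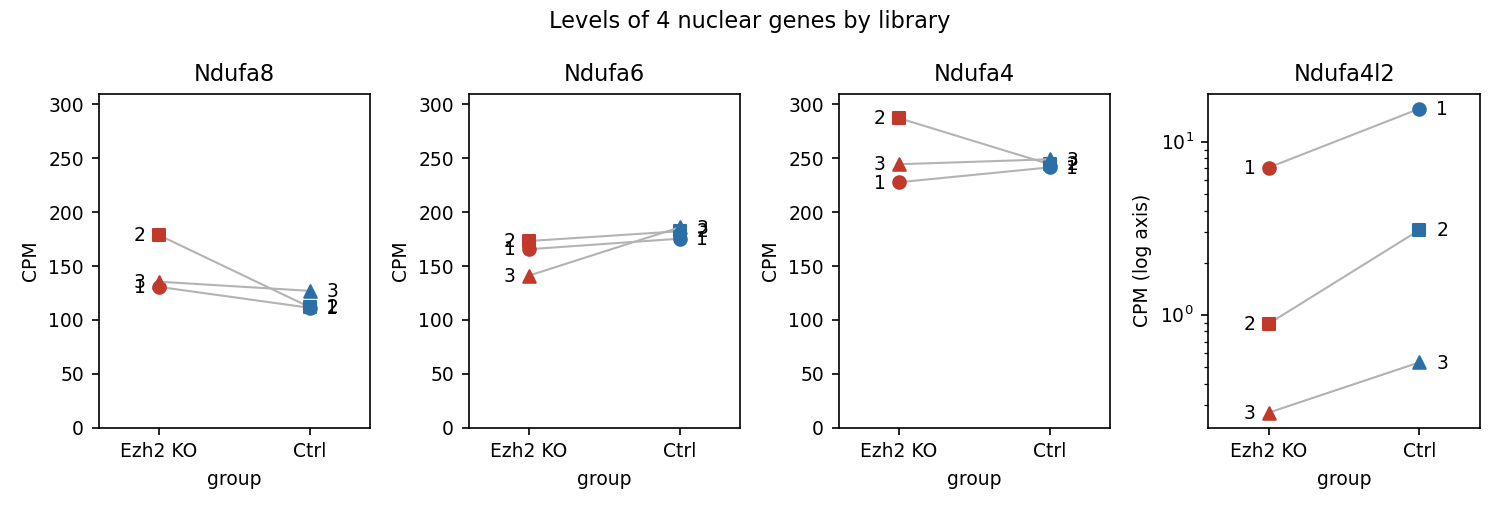
Levels in CPM of Ndufa8, Ndufa6, Ndufa4 (linear axes) and Ndufa4l2 (log axis) in Ezh2 KO (left) and Ctrl (right); points are libraries numbered by replicate, and lines join libraries of the same number. Ndufa8 and Ndufa6 have groups that do not overlap, by a small step, and the Ndufa4l2 lines run parallel over a wide range of levels.

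Summed within each library, the nuclear genes varied less between libraries than the mitochondrially encoded ones. The 37 nuclear genes summed to 5201, 6786 and 5302 CPM in Ezh2 KO and 5735, 5545 and 5913 CPM in Ctrl, or 5763 ± 887 CPM in Ezh2 KO and 5731 ± 184 CPM in Ctrl (SD, n = 3 each). The group means were nearly the same, and the wider spread of Ezh2 KO came from replicate 2. The 7 mitochondrially encoded genes summed to 2896, 5511 and 4548 CPM in Ezh2 KO and 2782, 3827 and 4526 CPM in Ctrl, or 4318 ± 1323 CPM in Ezh2 KO and 3712 ± 878 CPM in Ctrl. Replicate 1 was lowest in both groups, and the highest library held 1.98 times the lowest, against 1.31 times for the nuclear sum. Since the genes were chosen with results of these data known, sums over them are given with no p.

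The ratio of mitochondrial to nuclear complex I reads within a library does not depend on library scaling. It was 0.557, 0.812 and 0.858 in Ezh2 KO and 0.485, 0.690 and 0.766 in Ctrl. On the log2 scale the mean was -0.46 ± 0.34 in Ezh2 KO and -0.65 ± 0.35 in Ctrl (SD, n = 3 each), a difference of 0.20, smaller than the spread within either group. The same-numbered pairs differed by 0.20, 0.24 and 0.16, so the pairs differed from each other far less than the libraries did. The 2 sums behind the ratio were less even across pairs 1 to 3 (log2, Ezh2 KO over Ctrl). The mitochondrial sum differed by 0.058, 0.526 and 0.007, and the nuclear sum by -0.141, 0.291 and -0.157. No label says that the numbers pair the libraries. Without Ctrl replicate 1 the difference was 0.01 and without Ezh2 KO replicate 1 it was 0.39. Leaving out the libraries at both ends of the first component, Ctrl replicate 1 and Ezh2 KO replicate 2, gave -0.07, where 2 libraries of each group remain and only replicate 3 is in both. Per length the summed levels were 7420, 11840 and 11790 TPM for the mitochondrial and 8617, 9701 and 9051 TPM for the nuclear genes in Ezh2 KO. In Ctrl they were 6918, 9771 and 11230 TPM for the mitochondrial and 9189, 9340 and 9524 TPM for the nuclear genes. The mitochondrial sum thus lay below the nuclear sum in replicate 1 of either group and above it in the other 4 libraries.

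**Figure D4:**
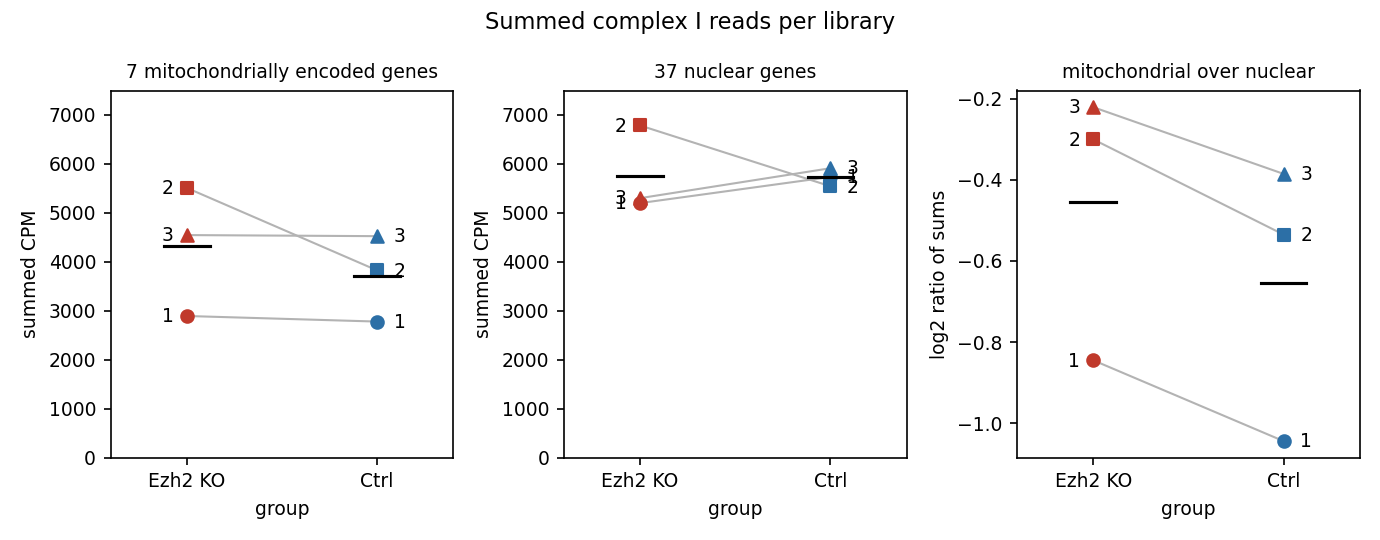
Summed CPM of the 7 mitochondrially encoded genes (left), of the 37 nuclear genes (middle) and the log2 ratio of the 2 sums (right), in Ezh2 KO (left in each panel) and Ctrl (right); points are libraries numbered by replicate, lines join the same number and short bars are group means. The mitochondrial sums run from 2782 to 5511 CPM and the nuclear sums from 5201 to 6786 CPM, and the Ezh2 KO end of each line in the ratio panel stands 0.16 to 0.24 above its Ctrl end.

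Most nuclear genes had 1 direction within a pair of same-numbered libraries, but the direction differed between pairs. In pair 1, 29 of the 37 were lower in Ezh2 KO, and in pair 3, 33 were lower. In pair 2, 33 were higher. Of the 7 mitochondrial genes, 4, 7 and 4 were higher in pairs 1 to 3. The summed nuclear genes of complexes II to V had the same signs as most nuclear complex I genes, with log2 ratios of -0.043, 0.243 and -0.135. The share of all tested genes in each direction was not counted, so whether these directions are particular to complex I was not tested. Ezh2 KO replicate 2 was the highest library for 25 of the 37 nuclear and 6 of the 7 mitochondrial genes, against 31% of all tested genes. It was also the highest for 28 of 38 nuclear genes of complexes II to V. The within-group SD of log2 levels was larger in Ezh2 KO than in Ctrl for 29 of the 37 nuclear genes (78.4%, against 73.7% of the nuclear genes of complexes II to V and 62.5% of all tested genes), with medians of 0.24 in Ezh2 KO and 0.11 in Ctrl. Ezh2 KO replicate 2 stands at the high end of the first principal component, and Ctrl replicate 1, the lowest library for 4 of the 7 mitochondrial genes, at the low end. The mitochondrial members have a median transcript GC content of 35.7% and the nuclear ones of 51.5%. The part of these library differences in the levels was not tested. Without Ezh2 KO replicate 2 the median log2 fold change was -0.10 for the nuclear and 0.04 for the mitochondrially encoded genes.

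**Figure D5:**
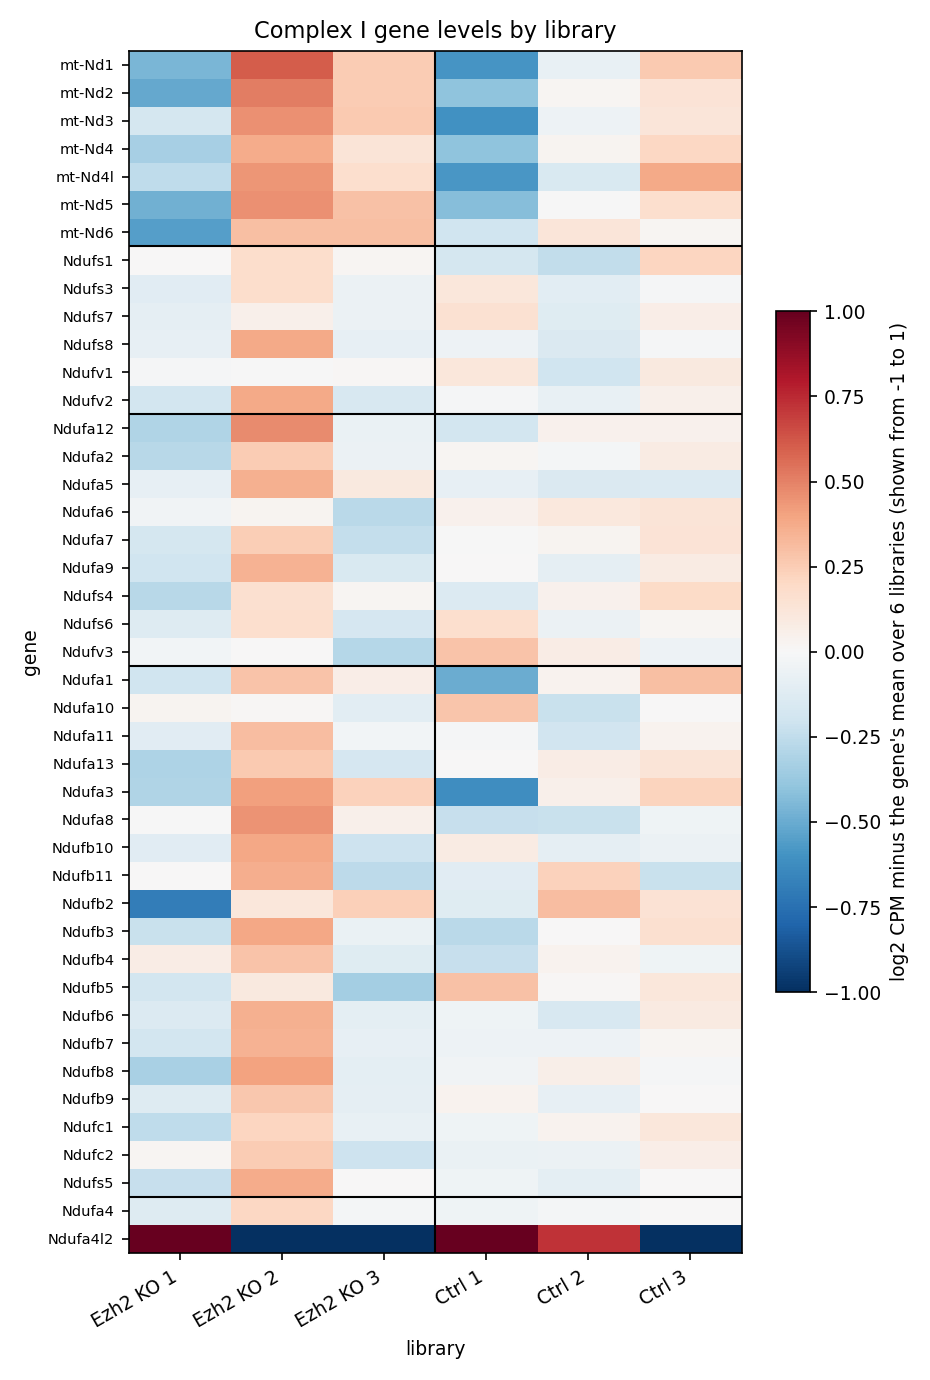
Level of each of 43 genes (rows, grouped by place in the complex) in each library (columns, Ezh2 KO left of the line and Ctrl right of it), as log2 CPM minus the gene's mean over the 6 libraries; colours stop at -1 and 1. The 7 mitochondrially encoded genes at the top are low in replicate 1 of both groups, most genes are high in Ezh2 KO replicate 2, and Ndufa4l2 at the bottom runs past the colour scale.

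The other genes of the pathway were read from lists of fixed membership, and 0 members of any of them passed edgeR over all genes. The other 6 mitochondrial messenger RNAs followed the same libraries, with a sum of 14920, 27310 and 20270 CPM in Ezh2 KO and 13500, 17910 and 23200 CPM in Ctrl. Complex I reads kept a nearly constant ratio to them: the sum of the 7 genes over the sum of these 6 was 0.194, 0.202 and 0.224 in Ezh2 KO and 0.206, 0.214 and 0.195 in Ctrl. For these 6 messenger RNAs over the nuclear genes of complexes II to V the pairs differed by 0.19, 0.37 and -0.06 on the log2 scale, less alike than for complex I. Their leading gene by p was mt-Atp6, a subunit of the proton channel of ATP synthase, with a log2 fold change of 0.33 ± 0.33 SE. Of the 2 mitochondrial ribosomal RNAs, mt-Rnr1 stood at 382 ± 149 CPM in Ezh2 KO and 427 ± 86.5 CPM in Ctrl.

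The 38 nuclear genes of complexes II to V had a median log2 fold change of 0.05, with 28 positive and 10 negative. Sdhd, a membrane anchor of complex II, stood at 167, 197 and 163 CPM in Ezh2 KO and 84.8, 149 and 187 CPM in Ctrl (0.32 ± 0.27 SE, and 0.06 without Ctrl replicate 1), with overlapping groups. Uqcrq, of complex III, was at 252 ± 45.5 CPM in Ezh2 KO and 213 ± 22.7 CPM in Ctrl, and Cox5b, of complex IV, at 200 ± 29.6 CPM in Ezh2 KO and 182 ± 6.07 CPM in Ctrl (SD, n = 3 each). Atp5e, the epsilon subunit of ATP synthase, stood at 138, 147 and 141 CPM in Ezh2 KO and 113, 124 and 110 CPM in Ctrl. Its Ezh2 KO libraries all lay above its Ctrl libraries, as for 2 of the 38 genes and 4.07% of all tested genes, and 0 of the 38 lay all below. The difference of Atp5e did not pass (0.30 ± 0.13 SE, unadjusted p = 0.0522, edgeR adjusted p = 0.976). Nuclear complex I reads were 0.415, 0.483 and 0.446 of those of complexes II to V in Ezh2 KO and 0.444, 0.467 and 0.453 of them in Ctrl.

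Of the 17 assembly factors, 10 had positive and 7 negative log2 fold changes (median 0.04), and 0 were called. In 4 of them (Ndufaf2, Ndufaf4, Tmem126a and Dmac1) the Ezh2 KO libraries all lay above the Ctrl libraries, and in 1 (Ndufaf6) all below, where 4.07% and 4.03% of all tested genes did. Except for Ndufaf2 these were named after their values were seen. Ndufaf2, a chaperone that holds the place of Ndufa12 during assembly, stood at 55.5, 55.2 and 67.9 CPM in Ezh2 KO and 47.8, 44.4 and 49.2 CPM in Ctrl (0.34 ± 0.17 SE, unadjusted p = 0.0814, edgeR adjusted p = 0.976). Ndufab1, the acyl carrier protein of both arms, whose symbol the name rule leaves out, stood at 271 ± 42.3 CPM in Ezh2 KO and 255 ± 25.2 CPM in Ctrl. The 15 genes of mitochondrial transcription, RNA handling and DNA replication had a median of 0.05. Their sum ran from 596 to 641 CPM in Ezh2 KO and from 609 to 644 CPM in Ctrl. Single genes varied more: the ratio of the highest to the lowest library had a median of 1.62 and reached 6.99 for Polrmt. Polrmt, the mitochondrial RNA polymerase, stood at 46.0, 7.26 and 20.4 CPM in Ezh2 KO and 50.8, 35.9 and 16.0 CPM in Ctrl, with overlapping groups. Twnk, the helicase of mitochondrial DNA, stood at 33.1 ± 14 CPM in Ezh2 KO and 44.8 ± 14.1 CPM in Ctrl (-0.43 ± 0.36 SE). Of 9 regulators of mitochondrial biogenesis 8 were tested, 4 with positive and 4 with negative values. In 1 of them, Gabpa, the Ezh2 KO libraries all lay above the Ctrl libraries (4.07% of all tested genes), and in 0 all below. Gabpa stood at 91.2, 99.8 and 90.3 CPM in Ezh2 KO and 49.1, 84.6 and 85.6 CPM in Ctrl (0.36 ± 0.23 SE, edgeR adjusted p = 0.976). Esrra, a nuclear receptor that drives respiratory genes, stood at 3.48, 1.66 and 2.92 CPM in Ezh2 KO and 5.88, 4.58 and 2.80 CPM in Ctrl, with overlapping groups (-0.72 ± 0.40 SE, edgeR adjusted p = 0.976).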

How the data were processed

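Messenger RNA was measured by RNA-seq in 6 libraries, 3 Ezh2 KO and 3 Ctrl. The authors deposited 1 table of raw read counts per Ensembl gene, with a column for each library. Per the submitters' processing notes, the tools were CASAVA 1.8.4, Trimmomatic 0.33, TopHat2 (2.0.11) and, for counting, featureCounts. The same notes give mm9 and NCBIM37 as builds. No source used here gives settings, strand use or the treatment of reads that align more than once. Gene IDs were matched to symbols, exon lengths and transcript GC content of GENCODE M21 (32919 of 37991 matched; the others held 1.80% to 2.73% of a library's counts). That annotation is of another build, so coordinates are printed only for the RefSeq promoters. Genes kept by filterByExpr (minimum count 10; 16420 genes) were scaled by TMM and tested with the robust quasi-likelihood test of edgeR 4.0.16 under R 4.3.3, two-sided, with group as the only term, Benjamini-Hochberg adjustment over all tested genes and a threshold of 0.05. Standard errors come from the F statistic and intervals are at 95%. The SD of log2 levels used a pseudocount of 0.5 CPM, and principal components a prior count of 2. Near-copies were searched with BLAST 2.17.0 among annotated transcripts (at least 95% identity over 100 bases).

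Alternatives were DESeq2 1.42.0, limma-voom (limma 3.58.1), DESeq2 size factors, no filter, a stricter filter, mitochondrial genes left out of library sizes, the replicate block, each library left out and a threshold of 0.10. Leaving out Ctrl replicate 1 and Ezh2 KO replicate 2 together was added after seeing the data. The groups share replicate numbers 1 to 3, and deviations from the group means correlated between same-numbered libraries (0.58, 0.37 and 0.19). Ezh2 KO replicate 2 also correlated with Ctrl replicate 3 (0.30), more than Ezh2 KO replicate 3 did. The other combinations of different numbers were negative. Within a group the deviations cancel for each gene, so a positive correlation brings negative ones with it. The negative values are thus no separate sign of pairing. Pairing by number was taken from these data, is least clear for pair 3, and no label says what the numbers share. The tests were checked on simulated counts with known changes.

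The members and the lists of other genes were chosen with earlier results of these data known. Counts, medians and sums cover all 44 members, of which 1 is not reported singly here. Genes named were Ezh2, all mitochondrial members, the nuclear core but for that gene, Ndufa4 and Ndufa4l2, the accessory genes at the ends of fold change and of level or with groups that do not overlap, and the gene of smallest p in each list. Ndufb4, Ndufb4c, Polrmt, Gabpa and the markers named for the cell type check were singled out after their values were seen.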

Additional observations from a re-analysis of the deposited data

How the results depend on the processing

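The call of 0 of the 44 complex I genes held under every alternative run. All genes called numbered 0 in edgeR under each alternative and in limma-voom, 5 in DESeq2 and 50 in DESeq2 with the replicate block. Members whose Ezh2 KO and Ctrl libraries do not overlap numbered 2 (8.09% of all tested genes) and 3 with DESeq2 size factors, and members with the same sign in all 3 pairs (replicate block) 6 (32.6% of all tested genes). With the replicate block in edgeR the median log2 fold change was 0.02 for nuclear and 0.18 for mitochondrial members, and pairing changed no call among the members. Leaving out 1 library at a time gave medians of -0.10 to 0.11 for nuclear and 0.04 to 0.44 for mitochondrial members, log2 ratios of the group means of -0.13 to 0.08 for the nuclear and 0.00 to 0.44 for the mitochondrial sum, and a difference of 0.01 to 0.39 in their ratio. Dropping 1 library leaves 1 same-numbered pair incomplete. With all 3 pairs kept, the ratio differed by 0.16 to 0.24 in each, with a mean of 0.20 (replicate block). No label states that pairing, and by the correlations between libraries it was least clear for pair 3. Leaving out Ctrl replicate 1 and Ezh2 KO replicate 2 together moved the nuclear median to -0.13 and the mitochondrial median to -0.15.

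None of the sign changes that follow passed a test, and their cause was not tested. Without those libraries the log2 fold change was -0.15 for mt-Nd1, -0.15 for mt-Nd2, -0.16 for mt-Nd4l, -0.19 for mt-Nd4, -0.12 for mt-Nd5, -0.12 for mt-Nd6, -0.15 for Ndufv2, -0.001 for Ndufs8, 0.05 for Ndufv1, -0.029 for Ndufs3, 1.00 for Ndufa4l2, -0.058 for Ndufa4, -0.14 for Ndufa3, -0.11 for Ndufab1, -0.021 for Sdhd, -0.20 for mt-Atp6 and 0.062 for Twnk. With 1 library left out, values ran from 0.00 to 0.45 for mt-Nd2, -0.036 to 0.29 for mt-Nd4, -0.05 to 0.31 for mt-Nd6, -0.15 to 0.14 for Ndufv2, -0.004 to 0.24 for Ndufs8, -0.11 to 0.04 for Ndufv1, -0.081 to 0.059 for Ndufs3, -3.52 to 0.61 for Ndufa4l2, -0.041 to 0.12 for Ndufa4, -0.35 to 0.059 for Ndufb2, -0.18 to 0.08 for Ndufa2, -0.035 to 0.17 for Ndufab1 and -0.53 to 0.013 for mt-Rnr1. Ndufs3, at 0.001, was -0.007 with DESeq2 size factors, -0.034 with no filter, -0.002 with the replicate block, -0.013 in DESeq2, -0.014 in DESeq2 with the block and -0.015 in limma-voom.

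The lowest count of a member in a library was 11, for Ndufa4l2. The parts of depth and of the number of libraries in the width of the intervals were not tested. Without Ctrl replicate 1 the log2 fold change was nearer 0 than with it for Ndufa3 (0.003), mt-Nd4l (0.007) and Sdhd (0.062).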
